A study of Drosophila melanogaster with 36 samples.

Results

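The elB and noc locus is a stretch of 210 kb on chromosome arm 2L of Drosophila melanogaster, from 14370000 to 14580000 of the dm6 build. Its members are the bound regions that touch this stretch, 375 of 112270 at a peak threshold of q 1e-2 and 313 of 64006 at q 1e-10, counted over 12 lines. The stretch was chosen on measured values, namely the widths and calls of the Dfd+Hth and Ubx+Hth regions that had no counterpart without Hth. These 2 lists are therefore described and not tested, and each line is a single merged list without values per replicate, so that no difference between lines could be set against replicate error. A single region, of Dfd+Hth from 14579973 to 14581626 (1654 bp), crosses the right edge, and the first one beyond it is a Dfd+Hth+Gcm region of 1452 bp from 14580181. On the left, the last region outside is an Abd-B region of 922 bp that ends at 14369591, and the first one inside is an Abd-B region of 3406 bp from 14371099.

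The regions come from ChIP-Seq with an antibody against GFP in Kc167 cells, a Drosophila line with features of hemocytes that expresses Exd but not Hth. Each protein was expressed from a copper-inducible metallothionein promoter in its own stable, puromycin-selected line, and GFP-positive cells were sorted within a fixed range of fluorescence. Each line had 2 biological replicates and 1 input library. The lists hold no read counts. Mapped reads per library are stated by the study for all lines except Dfd+Hth+Gcm and Ubx+Hth+Gcm. They differ between lines, and their part in the calls was not tested. The GFP tag was on the Hox protein wherever one was present, and Hth and Gcm were made untagged from the same transcript. Dfd+Hth+Gcm was induced for 22 h with 3.7 mM copper sulphate, Dfd+Hth for 22 h with 2.66 mM, Dfd+Gcm for 24 h with 3.2 mM and Dfd alone for 24 h with 2 mM. Ubx+Hth+Gcm and Ubx+Gcm were induced for 24 h with 2.5 mM, and Ubx+Hth and Ubx alone for 18 h with 1 mM. Abd-B+Hth was induced for 24 h with 2.5 mM and Abd-B alone for 24 h with 0.5 mM. The lines with a tagged cofactor and no Hox protein were Hth, induced for 18 h with 1 mM, and Gcm, induced for 24 h with 2.5 mM. Copper therefore differed between Dfd+Hth and Dfd, between Dfd+Hth+Gcm and Dfd+Gcm and between Abd-B+Hth and Abd-B, where it cannot be told apart from Hth. Induction time differed too in these contrasts of the Dfd lines, at 22 h with Hth and 24 h without it. Neither copper nor induction time differed between Ubx+Hth and Ubx or between Ubx+Hth+Gcm and Ubx+Gcm. Copper also differed between each Hox line with Gcm and its counterpart without Gcm, where it cannot be told apart from Gcm. Induction time differed as well in these contrasts of the Ubx lines.

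The genes elB (elbow B) and noc (no ocelli) encode related zinc finger proteins that act as transcriptional repressors in the development of appendages, tracheae and the head. Hox proteins bind short homeodomain sites that are much alike in vitro. With Exd and Hth, homeodomain proteins of the TALE class, they bind longer composite sites, here written as the octamers TGATTGAT (class 1), TGATTAAT (class 2) and TGATTTAT (class 3). Any of the 3 occurs on either strand in 4.64% of all 200 bp tiles of the genome, and they occur singly in 1.27%, 1.35% and 2.16%. Gcm is an unrelated transcription factor of the glial and hemocyte lineages. In the annotation, elB (FBgn0004858) lies at 14390628 to 14409549 on the minus strand and noc (FBgn0005771) at 14490859 to 14494019 on the plus strand, so that the annotated starts of the 2 genes are 81310 bp apart. The other protein-coding genes named here are ppk (14378218 to 14381172), a subunit of an ion channel of sensory neurons, CG4218 (14547498 to 14549109) and CG3473 (14563015 to 14563726).

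Regions that shared at least 1 bp, directly or through others, were joined into clusters, which gave 64 clusters numbered from left to right. The widest region of the locus is a Dfd+Hth+Gcm region of 7055 bp in cluster 57, 68.4 kb beyond the start of noc. Dfd+Hth, Ubx+Hth and Abd-B+Hth had regions in this cluster but none of the 3 Hox proteins alone had one, and it holds 9 octamers. They are printed with 10 bases on either side, on the strand that reads as the octamer, with the octamer in capitals, since they are the composite sites under the widest stretch without a region of a Hox protein alone.
cluster 57, chr2L:14556704-14556731 (plus strand): agtctgctagTGATTGATgggactgatc
cluster 57, chr2L:14557275-14557302 (minus strand): tttccggtttTGATTGATgggggctgca
cluster 57, chr2L:14558279-14558306 (plus strand): attgccacatTGATTGATgtgctcaata
cluster 57, chr2L:14560071-14560098 (plus strand): actccgacgaTGATTGATgtgtttggca
cluster 57, chr2L:14560178-14560205 (minus strand): tcgccacggaTGATTAATacatttctac
cluster 57, chr2L:14561506-14561533 (minus strand): agcatggcagTGATTTATtgagatggcc
cluster 57, chr2L:14561649-14561676 (minus strand): cgacaacgccTGATTGATgccttgatgg
cluster 57, chr2L:14561975-14562002 (plus strand): acagctctctTGATTTATgcgcagacac
cluster 57, chr2L:14562596-14562623 (minus strand): ttaaattaatTGATTTATatggactggc

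Clusters 50 and 56 were the other ones bound by all 3 Hox proteins with Hth and by none of them alone. They hold 2 octamers each.
cluster 50, chr2L:14540986-14541013 (plus strand): ggtgtccagcTGATTAATgccacgccac
cluster 50, chr2L:14541064-14541091 (plus strand): aatgcccattTGATTGATgcccaaggcg
cluster 56, chr2L:14553749-14553776 (minus strand): ctctgtgaatTGATTGATgggtctgcca
cluster 56, chr2L:14554484-14554511 (minus strand): ttgtgtcactTGATTGATgactgctgtc

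Cluster 58, next to cluster 57, was bound by Dfd+Hth and Dfd+Hth+Gcm over more than 2600 bp but had no Ubx+Hth or Abd-B+Hth region. It was picked for this contrast after its values were seen. Of its 6 octamers 4 were of class 2, against 1 of 9 in cluster 57.
cluster 58, chr2L:14565648-14565675 (plus strand): ccacatcggaTGATTAATggctggcaaa
cluster 58, chr2L:14565801-14565828 (minus strand): gcacaccgatTGATTAATgaaaatgcga
cluster 58, chr2L:14565926-14565953 (minus strand): ccgagattttTGATTGATggcgcgagtg
cluster 58, chr2L:14566846-14566873 (plus strand): gtgtgtcccaTGATTAATgagcttatta
cluster 58, chr2L:14567398-14567425 (plus strand): acatgtcgtaTGATTAATgttggccaaa
cluster 58, chr2L:14567802-14567829 (plus strand): gcctcgcgttTGATTGATtgaaactgca

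The cluster that covers most of elB, cluster 7, is the widest of the locus and was bound in all 12 lines. Its 8 octamers all lie in the large intron of elB.
cluster 7, chr2L:14395940-14395967 (plus strand): tgatttgattTGATTTATtatcgcctgt
cluster 7, chr2L:14399463-14399490 (minus strand): acgttgcgtaTGATTGATaaacacgttg
cluster 7, chr2L:14402643-14402670 (plus strand): ttactgttacTGATTGATttgttattca
cluster 7, chr2L:14404156-14404183 (plus strand): agcggccagcTGATTAATatttatatac
cluster 7, chr2L:14404215-14404242 (plus strand): accaacttaaTGATTGATaccatttgaa
cluster 7, chr2L:14405421-14405448 (plus strand): acagatcgatTGATTGATttgttggaat
cluster 7, chr2L:14406652-14406679 (minus strand): aattattcaaTGATTAATggcagctgct
cluster 7, chr2L:14407026-14407053 (plus strand): tacgatccgtTGATTTATgggttttgcc

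Of the 101 octamers between 14370000 and 14580000, 34 were of class 1, 21 of class 2 and 46 of class 3. This made 0.481 matches per kb, counted on both strands, against 0.279 per kb on the rest of arm 2L and 0.258 per kb in the rest of the genome. The GC content was similar, at 41.1% in the locus, 41.8% in the rest of the arm and 42.2% in the rest of the genome. Outside the locus the chromosome arms were cut into 626 stretches of the same length, which held a median of 55 octamers and at most 97. The edges of the locus were set with the binding known and those of the other stretches were not, so that this is a description. Octamers were thus dense in the sequence of the locus. The choice of the locus did not use sequence, but it used Dfd+Hth regions. In the rest of the genome these held 0.513 octamers per kb, against 0.258 per kb over all sequence. The density is therefore not independent of the choice.

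Regions of the lines that express Hth took up more of the locus than of the rest of the genome, while those of Ubx, Ubx+Gcm and Gcm did not. Dfd+Hth+Gcm regions covered 34.6% of the locus and 4.70% of the rest of the genome. Dfd+Hth covered 36.1% and 5.86%, Dfd+Gcm 5.25% and 4.32%, and Dfd alone 8.06% and 4.91%. For the Ubx lines the values were 22.6% and 4.51% with Hth and Gcm, 21.6% and 2.63% with Hth, 4.25% and 4.87% with Gcm, and 2.01% and 2.56% for Ubx alone. The 2 lines with Hth were thus the ones of the 4 Ubx lines with high cover. Abd-B+Hth regions covered 27.0% of the locus and 8.48% of the rest, and Abd-B alone 26.9% and 9.37%. Hth without a Hox protein covered 17.7% and 5.60%, and Gcm 4.23% and 4.48%. Abd-B differed from Dfd and Ubx in that it covered almost the same share of the locus with Hth and without it.

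**Figure D1:**
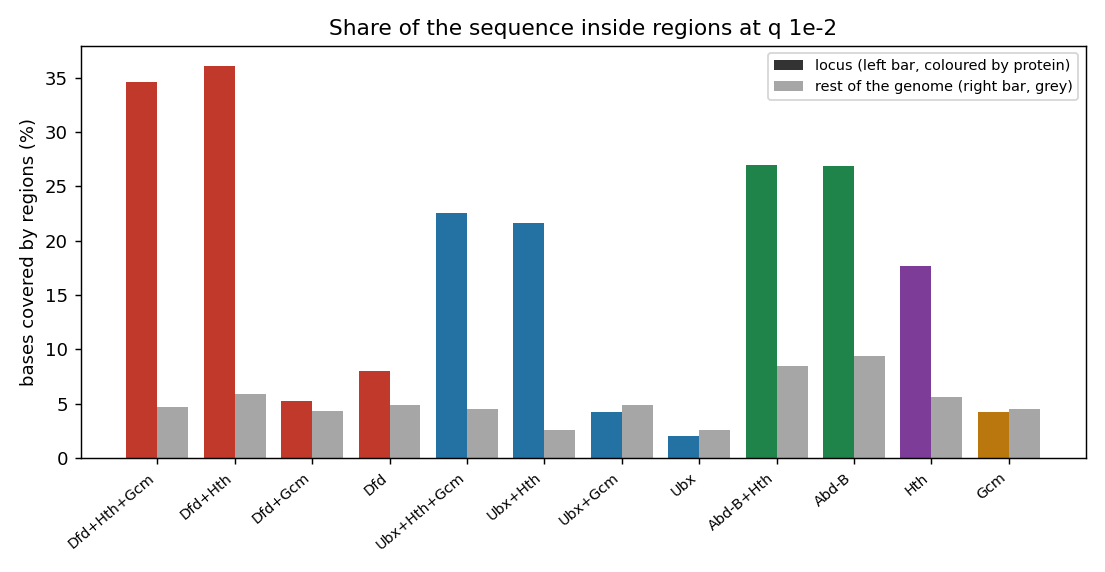
Percent of bases inside regions at q 1e-2 for each of the 12 lines, with the locus as the left, coloured bar and the rest of the genome as the right, grey bar of each pair. Each bar is a single merged list, so that there are no error bars. The Dfd and Ubx lines with Hth stand at 21.6% to 36.1% of the locus, against 2.01% to 8.06% for the Dfd and Ubx lines without it.

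The Dfd and Ubx lines with Hth also had more regions than those without it. The locus held 53 regions of Dfd+Hth+Gcm, 55 of Dfd+Hth, 15 of Dfd+Gcm and 21 of Dfd. It held 44 of Ubx+Hth+Gcm, 39 of Ubx+Hth, 11 of Ubx+Gcm and 6 of Ubx. Abd-B+Hth had 43 and Abd-B 39, Hth had 32 and Gcm 17. At q 1e-10 the counts were 48, 47, 11 and 14 for the Dfd lines in the same order, 41, 33, 8 and 3 for the Ubx lines, 36 for both Abd-B+Hth and Abd-B, 28 for Hth and 8 for Gcm. The Dfd and Ubx lines with Hth thus had more regions than those without it at either threshold.

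Regions were wide as well as many. The median width in the locus was 1059 bp for Dfd+Hth+Gcm, against 568 bp in the rest of the genome, and 982 bp against 616 bp for Dfd+Hth. For Dfd alone it was 430 bp in the locus against 501 bp elsewhere. Ubx+Hth regions had medians of 869 bp and 573 bp, Abd-B+Hth regions 1005 bp and 624 bp, and Abd-B regions 1186 bp and 674 bp. Widths chose the locus for Dfd+Hth and Ubx+Hth, so that these are descriptions. Regions of the genome bound only with Hth at q 1e-10 were also ranked by width within each line. Of the 20 widest of Dfd+Hth, 7 lie in the locus, as do 7 of the 20 widest of Ubx+Hth and 1 of the 20 widest of Abd-B+Hth.

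**Figure D2:**
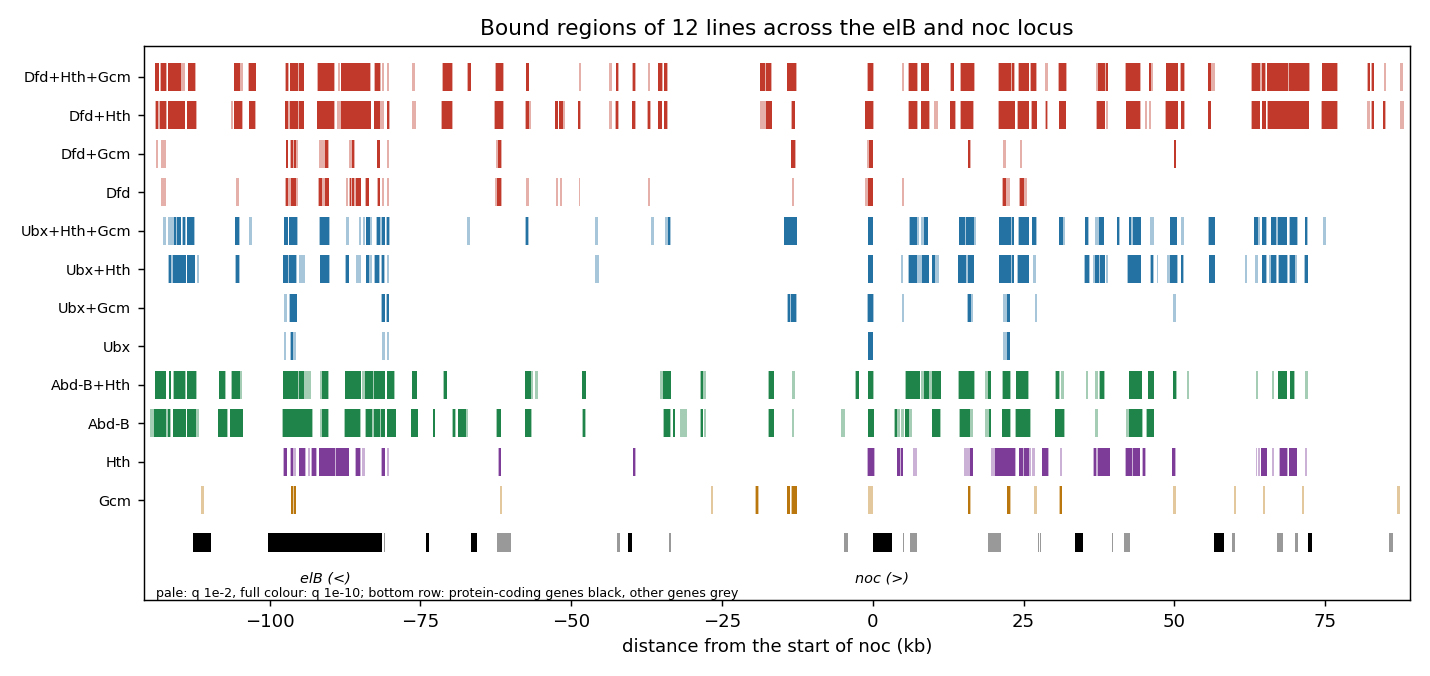
Regions of the 12 lines across the locus, with the distance from the annotated start of noc in kb on the x axis and a row for each line. Pale bars are regions at q 1e-2, full colours regions at q 1e-10, and the bottom row shows protein-coding genes in black and other genes in grey, with the direction of transcription of elB and noc as an arrow. The rows with Hth are filled across the stretch to the right of noc, where the rows of Dfd and Ubx alone are nearly empty and end before the last 42479 bp.

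Of the 55 Dfd+Hth regions in the locus, 37 (67.3%) overlapped no Dfd region, where 21.6% of all Dfd+Hth regions of the genome did so. They covered 45945 bp of the locus. For Ubx+Hth, 34 of 39 regions (87.2%) overlapped no Ubx region, beside 32.8% over the genome, and they covered 38561 bp. For Abd-B+Hth this held for 12 of 43 regions (27.9%), beside 15% over the genome, and for 7140 bp. The first 2 contrasts are the ones that chose the locus, so that nothing is read from their excess over the genome. The Abd-B count fell to 7 of 36 regions (19.4%) at q 1e-10.

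In the lines with Gcm in place of Hth, fewer regions lacked a counterpart in the Hox protein alone. Of 15 Dfd+Gcm regions 3 had no Dfd counterpart (20%, beside 13.1% over the genome), and of 11 Ubx+Gcm regions 5 had no Ubx counterpart (45.5%, beside 48.4%). With Hth in both lines, 2 of 53 Dfd+Hth+Gcm regions had no Dfd+Hth counterpart (3.77%, beside 9.83% over the genome) and 11 of 44 Ubx+Hth+Gcm regions no Ubx+Hth counterpart (25%, beside 50%). With Gcm in both lines, 38 of 53 Dfd+Hth+Gcm regions had no Dfd+Gcm region (71.7%, beside 27%) and 34 of 44 Ubx+Hth+Gcm regions no Ubx+Gcm region (77.3%, beside 21%). These 2 contrasts come from other lines with other inductions, although the locus had been chosen on the contrast with and without Hth for the same Hox proteins.

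Regions of Dfd and Ubx alone were rarely missing with Hth. Of the 21 Dfd regions 1, of 251 bp near the tRNA gene tRNA:Pro-AGG-1-1 downstream of noc, overlapped no Dfd+Hth region (4.76%, beside 19.2% of all Dfd regions). All 6 Ubx regions overlapped a Ubx+Hth region, where 36.9% of all Ubx regions of the genome did not. The locus was chosen on wide Dfd+Hth and Ubx+Hth regions, which leave a Dfd or Ubx region little room to miss them. Nothing is therefore read from these differences from the genome. Of 39 Abd-B regions, 9 had no Abd-B+Hth counterpart (23.1%, beside 17.9%).

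The 37 Dfd+Hth regions without a Dfd region were shared with other lines to unequal degrees. Dfd+Hth+Gcm bound 34 of them (91.9%), against 66.5% of all such regions of the genome. Ubx+Hth bound 17 (45.9%), against 18.3%, Abd-B+Hth 19 (51.4%), against 44.6%, and Abd-B alone 16 (43.2%), against 41.6%. Hth without a Hox protein bound 14 (37.8%), against 29.6%, and Ubx alone bound none, against 6.98%. The remaining 23 were thus bound by tagged Dfd with Hth but not called for tagged Hth itself. Of the 34 Ubx+Hth regions without a Ubx region, Dfd+Hth bound 28 (82.4%), against 61.4% of all such regions of the genome, and Dfd alone bound 8 (23.5%), against 43.3%. The locus was chosen on the Dfd+Hth and Ubx+Hth regions without a counterpart. Nothing is therefore read from the excess of their overlap with each other over the genome. The shares of the other lines with Hth are not independent of this choice either.

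In bases, lines overlapped to unequal degrees. Dfd+Hth+Gcm and Dfd+Hth shared 67891 bp, which is 93.4% of the first and 89.5% of the second. Ubx+Hth+Gcm and Ubx+Hth shared 37095 bp, 78.2% and 81.6%. Ubx+Hth and Dfd+Hth shared 38775 bp, which is 85.3% of the bases of Ubx+Hth but 51.1% of those of Dfd+Hth. Abd-B+Hth and Dfd+Hth shared 42121 bp, 74.4% and 55.5%, and Dfd+Hth and Hth 29725 bp, 39.2% and 80.1%. Abd-B+Hth and Hth shared 20948 bp, 37.0% and 56.4%. Abd-B+Hth and Abd-B shared 44145 bp, 77.9% and 78.1%. Of the whole locus 54.1% was inside a region of at least 1 line, and 0.803% was inside regions of all 12.

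Clusters were counted on the regions that touch the locus, which matters for cluster 64 at the right edge. It held the Dfd+Hth region alone, but beyond the edge this region overlaps regions of 6 further lines, among them Dfd and Ubx+Hth. Of the other 63 clusters 16 were bound in a single line, and 23 had a Hox+Hth region but no region of any of the 3 Hox proteins alone. A region of Dfd, Ubx or Abd-B alone was present in 33. Dfd+Hth had regions in 40 clusters and Dfd in 14, Ubx+Hth in 21 and Ubx in 4, and Abd-B+Hth and Abd-B in 29 each. Dfd+Hth and Ubx+Hth met in 16 clusters, Dfd+Hth without Ubx+Hth occurred in 23 beside cluster 64, and Ubx+Hth without Dfd+Hth in 5. The 25 clusters described singly below hold a region of 1500 bp or more, were bound in 10 or more lines, or lie within 2 kb of elB or noc. They hold 297 of the 375 regions and are 1544 to 17102 bp wide.

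**Figure D3:**
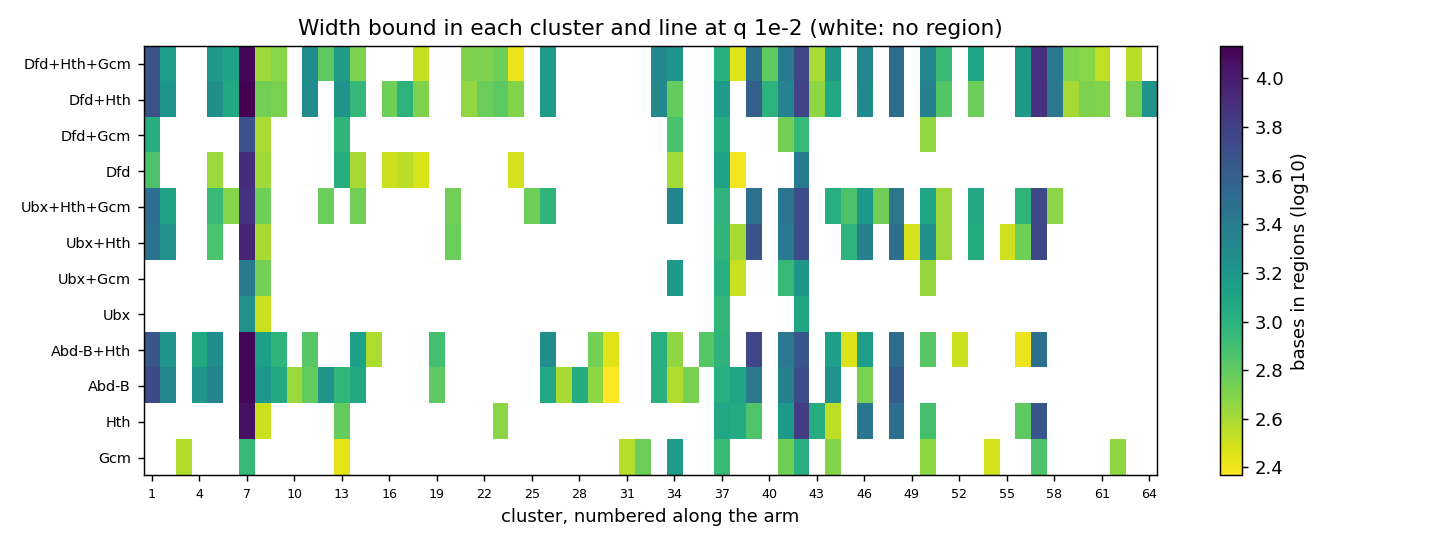
Bases inside regions at q 1e-2, on a log10 colour scale, for each of the 64 clusters (x axis, left to right along the arm) and each of the 12 lines (rows), with white where a line had no region. Clusters 7, 37 and 42 are filled in all 12 rows, and from cluster 49 on the rows of Dfd, Ubx and Abd-B without a cofactor are empty.

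Cluster 7 (chr2L:14392971-14410072, 17102 bp) runs from the large intron of elB across its first exon and start and over lncRNA:CR44733. It holds 64 regions. Dfd+Hth+Gcm regions summed to 12721 bp, Dfd+Hth to 13592 bp, Dfd+Gcm to 4858 bp and Dfd to 8153 bp. Dfd alone therefore bound elB itself, with 7 regions of 371 to 2153 bp, and none of the 4 Dfd+Hth regions there was without a Dfd counterpart. Ubx+Hth+Gcm regions summed to 7623 bp, Ubx+Hth to 8958 bp in 8 regions, Ubx+Gcm to 2555 bp and Ubx to 1746 bp in 3. Abd-B+Hth bound 12618 bp, Abd-B 12839 bp, Hth 11327 bp and Gcm 896 bp in a single region. The Hth region from 14399046 to 14404082 (5037 bp) is the widest of that line in the locus, and the Dfd+Hth region from 14402104 to 14407749 (5646 bp) overlaps its right end. Ubx alone was called only near the ends of the cluster, between 14393189 and 14395224 and between 14409443 and 14409929.

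Of the 8 octamers in cluster 7, the class 1 match at 14399473 to 14399480 lay inside regions of 9 lines, all except Ubx, Ubx+Gcm and Gcm. The class 1 match at 14402653 to 14402660 lay only in those of Dfd+Hth, Dfd+Hth+Gcm and Hth. No octamer of the cluster lay in a region of Ubx, Ubx+Gcm or Gcm. Dfd+Hth regions covered all 8 and Dfd regions 5 of them.

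Bound in all 12 lines were 2 short stretches of the locus, and neither held an octamer. One is in the elB intron, at 14394359 to 14395224 (866 bp), 14758 bp downstream of the elB start. The other is at 14490056 to 14490875 (820 bp), centred 394 bp upstream of the noc start and reaching into its first exon. Their central 200 bases are printed because they are the places called in every line, with and without Hth or Gcm. Capitals mark any match, on either strand, to 2 groups of Hox-type 7-mers. The first group, of the 7-mers CTAATGA and CTAATTA and the 7-mers TTAATGA and TTAATTA, occurs in 16.1% of all 200 bp tiles of the genome. The second group, of the 7-mers TTTATGA and TTTATGG and the 7-mers TTTATTA and TTTATTG, occurs in 25.3% of them.
elB intron core, chr2L:14394692-14394891 (plus strand): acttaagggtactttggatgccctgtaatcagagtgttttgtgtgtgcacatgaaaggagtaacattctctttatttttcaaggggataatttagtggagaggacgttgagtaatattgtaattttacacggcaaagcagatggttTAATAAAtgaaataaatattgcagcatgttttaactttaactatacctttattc
noc start core, chr2L:14490366-14490565 (plus strand): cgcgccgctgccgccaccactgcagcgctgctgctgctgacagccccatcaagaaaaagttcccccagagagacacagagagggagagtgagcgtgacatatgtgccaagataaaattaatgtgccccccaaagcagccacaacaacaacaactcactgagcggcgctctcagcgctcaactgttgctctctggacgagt

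The elB stretch held 1 such 7-mer, read on the minus strand, and had a GC content of 33.0%. The noc stretch held none and had a GC content of 56.5%. In cluster 37 (chr2L:14489592-14491142, 1551 bp), which contains the noc stretch, each line had a single region. Their widths were 1021 bp for Dfd+Hth+Gcm, 1431 bp for Dfd+Hth, 1099 bp for Dfd+Gcm and 1279 bp for Dfd. They were 970, 957, 1035 and 914 bp for Ubx+Hth+Gcm, Ubx+Hth, Ubx+Gcm and Ubx, 973 bp for Abd-B+Hth and 1041 bp for Abd-B, 1213 bp for Hth and 877 bp for Gcm. The noc start was thus bound with and without cofactors, over 877 to 1431 bp, and at q 1e-10 in all lines except Gcm. The single octamer of the cluster, of class 3 at 14489758 to 14489765, lay outside the shared stretch, in regions of Dfd+Hth and Dfd only.

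Cluster 8 (chr2L:14410166-14411791, 1626 bp), upstream of elB, was bound in 11 lines, all except Gcm, with 1359 bp in Abd-B+Hth, 1548 bp in Abd-B and 323 to 572 bp in the other ones. At q 1e-10 it was called in 5 lines, of which Abd-B was the single one without a cofactor. Over its best-shared stretch, at 14410305 to 14410592, it lies upstream of the elB start and holds no octamer. A further stretch at the start itself, 14409508 to 14409878, was shared by 10 lines, all except Dfd+Gcm and Gcm. The 2 gene starts were therefore bound by Hox proteins of all 3 kinds without Hth.

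Left of elB, clusters 1, 2, 4 and 5 lie between 14371099 and 14386461. Cluster 1 (chr2L:14371099-14376973, 5875 bp) had 5 octamers, 4 of them class 3. Dfd+Hth+Gcm regions summed to 4770 bp there, Dfd+Hth to 4969 bp, Dfd+Gcm to 1084 bp and Dfd to 726 bp. Ubx+Hth+Gcm bound 3056 bp and Ubx+Hth 2886 bp in a single region, and Ubx and Ubx+Gcm had none. Abd-B+Hth bound 4551 bp and Abd-B 5565 bp, and neither Hth nor Gcm had a region. All 5 octamers lay inside regions of the same 6 lines, namely Dfd+Hth, Dfd+Hth+Gcm, Ubx+Hth, Ubx+Hth+Gcm, Abd-B+Hth and Abd-B.

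Cluster 2 (chr2L:14377100-14379144), which overlaps the end of ppk, was bound by the same 6 lines over 1265 to 2028 bp, and both of its octamers were of class 3. Cluster 5 (chr2L:14384240-14386461) had 1812 bp of Dfd+Hth, 430 bp of Dfd, 742 bp of Ubx+Hth, 1842 bp of Abd-B+Hth and 2222 bp of Abd-B, and no Ubx or Hth region. Cluster 4 (chr2L:14382313-14383890) was bound by Abd-B+Hth over 1158 bp and by Abd-B over 1578 bp and by no other line. Clusters 1, 2, 4 and 5 were in this way bound by Abd-B without Hth, and clusters 1, 2 and 5 by Ubx only with it. Cluster 6 (chr2L:14387331-14388615), nearer to elB, had regions of Dfd+Hth, Dfd+Hth+Gcm and Ubx+Hth+Gcm and none of Abd-B or Abd-B+Hth. Cluster 3 was bound by Gcm only.

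**Figure D4:**
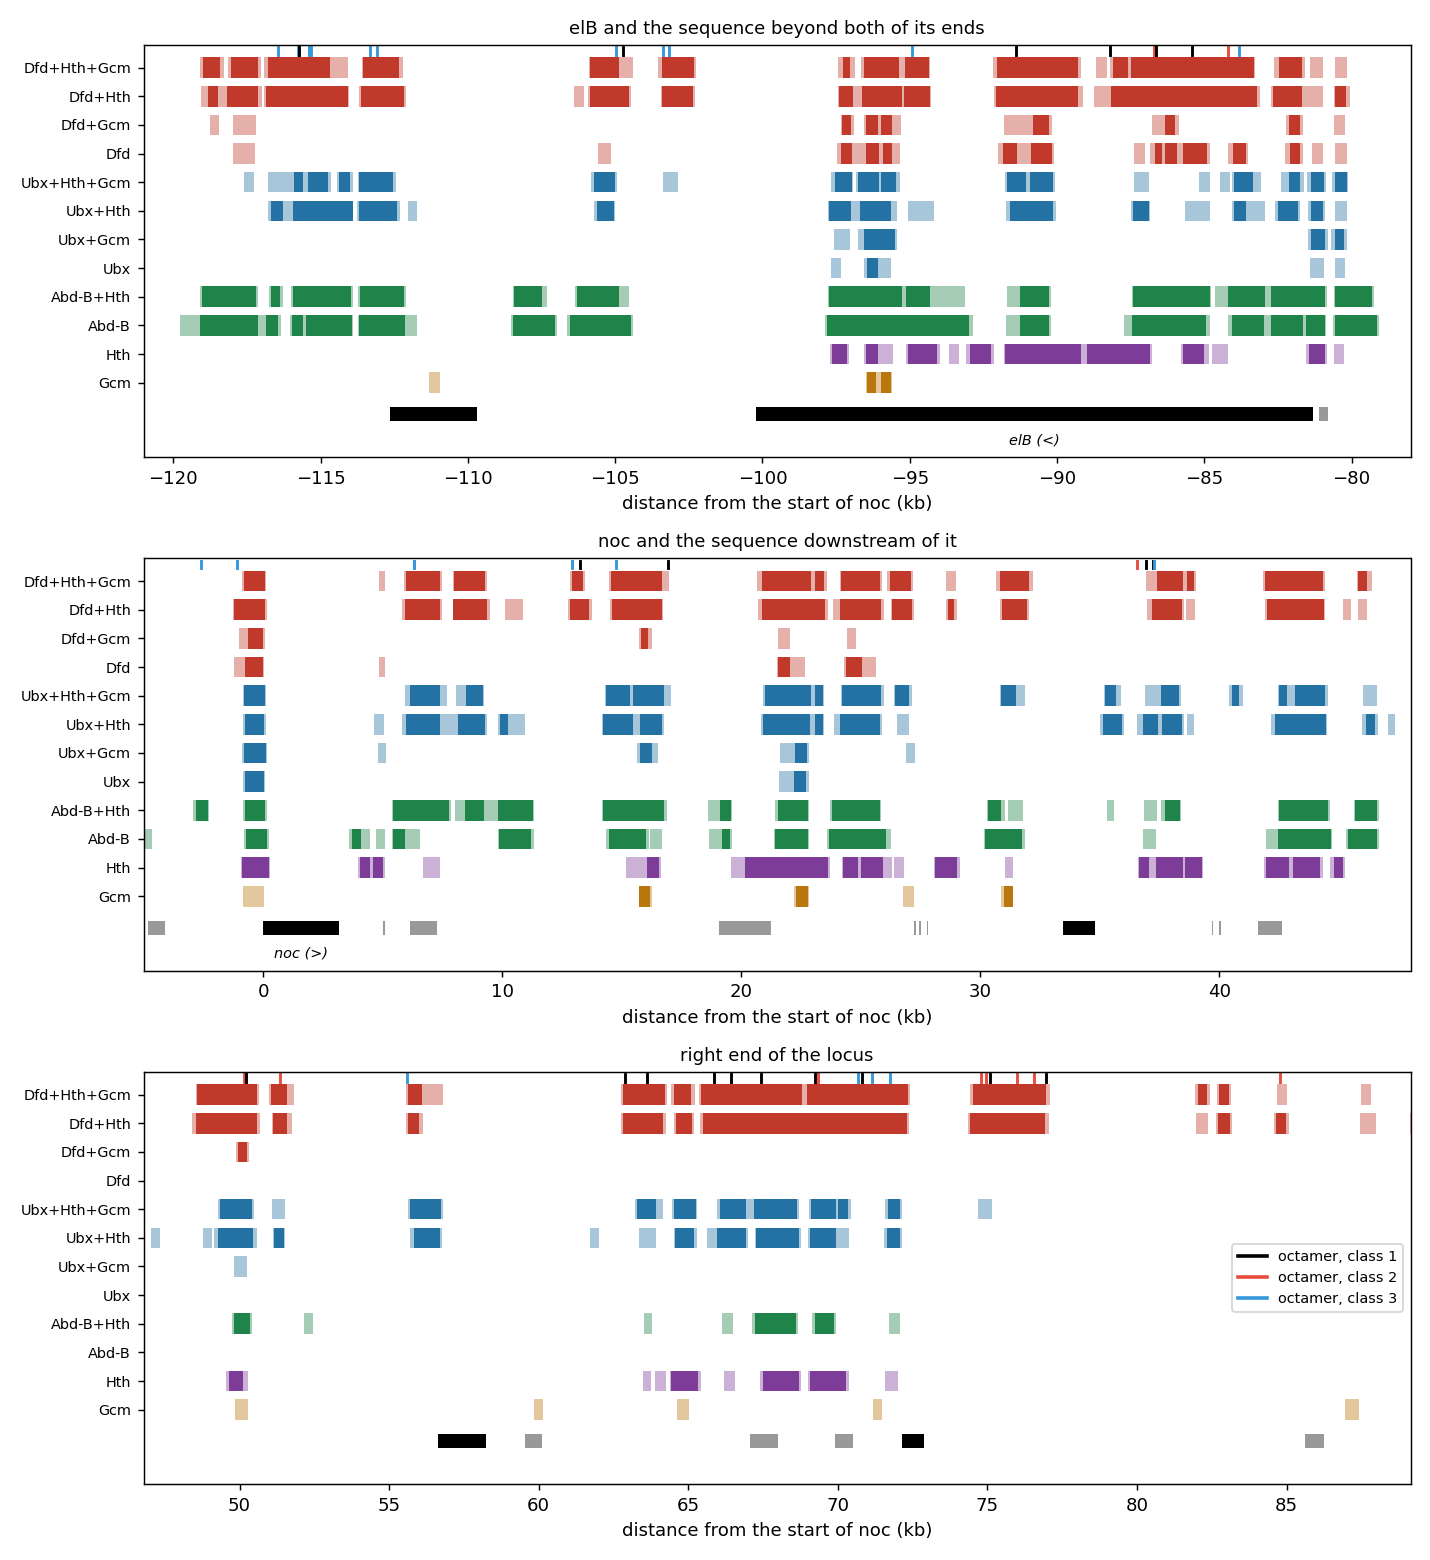
Regions of the 12 lines at elB and beyond both of its ends (top), at noc and downstream of it (middle) and at the right end of the locus (bottom), drawn as in the map of the whole locus, with octamers as ticks above the rows (class 1 black, class 2 red, class 3 blue). In the bottom panel the rows of Dfd, Ubx and Abd-B without a cofactor hold no region, while Dfd+Hth regions cover 40.9% of that stretch.

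Between elB and noc the wide clusters were few. Cluster 11 (chr2L:14419316-14421715), between Pburs, which encodes a subunit of the hormone bursicon, and the cuticle protein gene Cpr35B, held 5 octamers in 2400 bp. Dfd+Hth+Gcm bound 1833 bp of it, Dfd+Hth 1888 bp, Abd-B+Hth 667 bp and Abd-B 607 bp, and no Ubx line had a region. Cluster 12 (chr2L:14422075-14424270) also held 5 octamers, but was bound by Dfd+Hth+Gcm (635 bp), Ubx+Hth+Gcm (578 bp) and Abd-B (1649 bp) and not by Dfd+Hth. Cluster 13 (chr2L:14428117-14429763), over lncRNA:CR44732, was bound by all 4 Dfd lines over 956 to 1647 bp, by Abd-B, Hth and Gcm, and by no Ubx line. Its 2 class 2 octamers overlap on opposite strands. In cluster 26 (chr2L:14455227-14457377, at lncRNA:CR44730) and cluster 33 (chr2L:14472078-14474529) Dfd+Hth, Dfd+Hth+Gcm, Abd-B+Hth and Abd-B had regions, with Ubx+Hth+Gcm in cluster 26 as well. Dfd alone had none in either.

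Cluster 34 (chr2L:14476140-14478293, 2154 bp), centred 13.6 kb upstream of noc, was the site where lines with Gcm stood out. Ubx+Hth+Gcm had a region of 2154 bp and Ubx+Gcm one of 1542 bp, against no region for Ubx+Hth or Ubx. Dfd+Hth+Gcm had 1612 bp and Dfd+Gcm 745 bp, against 608 bp for Dfd+Hth and 410 bp for Dfd. Gcm itself had regions of 517 and 915 bp there. Abd-B+Hth had 456 bp and Abd-B 378 bp, and Hth had none. The cluster held no octamer and no match to the Gcm site described next.

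The Gcm site, spelled ATGCGGGT, ATGCGGGC, ATACGGGT or ATACGGGC, occurred 10 times in the locus on both strands, or 0.0476 per kb, against 0.0517 per kb in the rest of the genome, and in 0.994% of all 200 bp tiles. Of the 10 matches 5 lay inside the 17 Gcm regions, which is 0.563 per kb of Gcm-bound sequence, against 0.576 per kb in the Gcm regions of the rest of the genome. These 5 are shown with the site in capitals.
cluster 32, chr2L:14471572-14471599 (minus strand): ggaatacaaaATGCGGGCgaaatatgtc
cluster 42, chr2L:14517989-14518016 (plus strand): tttactatctATACGGGTattttaaacg
cluster 44, chr2L:14522019-14522046 (minus strand): tgtcacagacATGCGGGTgaatttgtca
cluster 57, chr2L:14562214-14562241 (plus strand): gacggtaaacATGCGGGTctaactaggc
cluster 62, chr2L:14578081-14578108 (plus strand): aatggtacggATGCGGGTacgagatcgg

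In clusters 32 and 62 Gcm was the only line bound. In cluster 42 the match lay inside regions of Gcm, Ubx+Gcm, Ubx+Hth+Gcm, Dfd+Hth and Dfd+Hth+Gcm, and in cluster 57 inside those of Gcm, Dfd+Hth and Dfd+Hth+Gcm. Gcm-only clusters were 5 in all, 304 to 578 bp wide.

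Downstream of noc, cluster 38 (chr2L:14494446-14496006), over tRNA:Pro-AGG-1-1, had short regions in Dfd+Hth+Gcm (283 bp), Dfd (251 bp), Ubx+Hth (395 bp) and Ubx+Gcm (328 bp), 1249 bp in Abd-B and 1112 bp in Hth. Dfd+Hth, Ubx and Abd-B+Hth had none. Cluster 39 (chr2L:14496236-14502206, 5971 bp, over lncRNA:CR45303) had 4642 bp of Ubx+Hth, 3961 bp of Dfd+Hth, 5744 bp of Abd-B+Hth and 2725 bp of Abd-B. Its Ubx+Hth region of 3526 bp is the widest of that line in the locus. Neither Ubx nor Dfd had a region in it, and Hth had 715 bp.

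Cluster 41 (chr2L:14505012-14507913) was bound in 10 lines, all except Dfd and Ubx. Dfd+Hth+Gcm covered 2502 bp, Dfd+Hth 2235 bp and Dfd+Gcm 543 bp. Ubx+Hth+Gcm covered 2763 bp, Ubx+Hth 2602 bp and Ubx+Gcm 886 bp. Abd-B+Hth covered 2714 bp, Abd-B 2287 bp, Hth 1483 bp and Gcm 567 bp. Clusters 41 and 50 are the ones in which Dfd and Ubx were each called with either cofactor and not without.

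Cluster 42 (chr2L:14509467-14518123, 8657 bp, over lncRNA:CR45693 and tRNA:Gly-GCC-1-4) was bound in all 12 lines. Dfd+Hth+Gcm bound 5768 bp, Dfd+Hth 6029 bp, Dfd+Gcm 898 bp and Dfd 2515 bp. Ubx+Hth+Gcm bound 5159 bp, Ubx+Hth 5141 bp, Ubx+Gcm 1589 bp and Ubx 1241 bp. Abd-B+Hth bound 4569 bp, Abd-B 5095 bp and Gcm 1065 bp. Hth alone bound 6657 bp, the most of all lines, and the cluster held no octamer. In this cluster wide binding with Hth thus occurred over sequence without any of the 3 octamers.

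Clusters 44, 46 and 48 lie between 14521007 and 14537525. Dfd and Ubx had no region in any of them. In cluster 46 (chr2L:14527410-14530182) Hth bound 2742 bp, Dfd+Hth 1966 bp, Ubx+Hth 2309 bp, Abd-B+Hth 1388 bp and Abd-B 527 bp, over 4 octamers. In cluster 48 (chr2L:14532675-14537525, over lncRNA:CR44852) Dfd+Hth bound 3225 bp, Ubx+Hth 3018 bp, Abd-B+Hth 3240 bp, Abd-B 4142 bp and Hth 3079 bp, over no octamer. In cluster 44 (chr2L:14521007-14523048) the values were 1214 bp for Dfd+Hth, 1364 bp for Abd-B+Hth and 1743 bp for Abd-B, with 350 bp for Hth and 498 bp for Gcm, and Ubx+Hth+Gcm (1065 bp) but not Ubx+Hth was bound.

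To the right of 14537521 no region of Dfd, Ubx or Abd-B alone was called up to the edge of the locus, 42479 bp away. In this stretch Dfd+Hth+Gcm had 11 regions that covered 42.2% of it, and Dfd+Hth had 12 that covered 40.9%. Ubx+Hth+Gcm had 9 regions (23.1%), Ubx+Hth 12 (23.8%), Abd-B+Hth 7 (10.1%), Hth 8 (14.0%) and Gcm 5 (4.59%). Dfd+Gcm and Ubx+Gcm had 1 region each, both in cluster 50. Of the 2763 gaps between regions of Dfd, Ubx or Abd-B on arm 2L, 83 are longer than the one here. Unlike the left part of the locus, Abd-B without Hth was absent here.

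Cluster 57 (chr2L:14555240-14563273, 8034 bp) overlaps lncRNA:CR44854, lncRNA:CR44855 and the end of CG3473. Dfd+Hth+Gcm had regions of 818 and 7055 bp and Dfd+Hth of 667 and 6977 bp. Ubx+Hth+Gcm had 4 regions of 558 to 2763 bp, Ubx+Hth 5 of 586 to 1539 bp and Abd-B+Hth 4 of 355 to 1543 bp. Hth had 5 regions of 360 to 1381 bp and Gcm 2 of 305 and 415 bp. At q 1e-10 the large Dfd+Hth region was 6828 bp, and that of Dfd+Hth+Gcm was split into 3384 and 3377 bp.

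The 9 octamers printed for cluster 57 were not all bound alike. Dfd+Hth and Dfd+Hth+Gcm regions covered all 9. The matches at 14557285, 14558289, 14560081, 14560188 and 14562606 lay inside regions of 6 lines, namely Dfd, Ubx and Abd-B with Hth, Dfd and Ubx with Hth and Gcm, and Hth. The 3 matches at 14561516, 14561659 and 14561985 lay in a part of the cluster where only Dfd+Hth and Dfd+Hth+Gcm were called. The match at 14556714 was in regions of these 2 lines and of Ubx+Hth.

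In cluster 50 (chr2L:14539272-14541534) Dfd+Hth+Gcm bound 2111 bp, Dfd+Hth 2263 bp and Dfd+Gcm 450 bp. Ubx+Hth+Gcm bound 1225 bp, Ubx+Hth 1755 bp and Ubx+Gcm 443 bp. Abd-B+Hth bound 667 bp, Hth 756 bp and Gcm 465 bp. Both octamers of the cluster lay inside regions of all these 9 lines. In cluster 56 (chr2L:14553605-14555148) Dfd+Hth+Gcm bound 1539 bp, Dfd+Hth 1515 bp, Ubx+Hth+Gcm 954 bp, Ubx+Hth 571 bp, Abd-B+Hth 262 bp and Hth 640 bp. Its octamer at 14554494 lay inside regions of all 6 lines and that at 14553759 inside those of Dfd+Hth and Dfd+Hth+Gcm. Ubx+Hth, Abd-B+Hth and Hth were not called in cluster 56 at q 1e-10.

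Cluster 58 (chr2L:14565205-14567934) had 2646 bp of Dfd+Hth+Gcm, 2703 bp of Dfd+Hth and 469 bp of Ubx+Hth+Gcm. At q 1e-10 the Ubx+Hth+Gcm region was not called. The 4 octamers of cluster 64 all lie beyond the right edge of the locus. Without that cluster, 9 of 24 octamers (37.5%) in clusters with Dfd+Hth but not Ubx+Hth were of class 2, and 6 of 41 (14.6%) in those with both. Of these 9, 4 lie in cluster 58, which was picked after its values were seen. A further 2 are the matches of cluster 13 that overlap on opposite strands. The contrast rests largely on these clusters. The 5 clusters with Ubx+Hth and no Dfd+Hth held no octamer in 3739 bp. The matches of a cluster share its sequence and its calls, so that these shares were not tested.

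Octamers were more frequent inside the regions of Hox proteins with Hth than around them. Inside Dfd+Hth regions of the locus they stood at 0.804 per kb, against 0.298 per kb in the rest of the locus and 0.513 per kb in Dfd+Hth regions of the rest of the genome. For Dfd+Hth+Gcm the values were 0.853, 0.284 and 0.557 per kb. For Ubx+Hth they were 0.616, 0.444 and 0.457 per kb, and for Abd-B+Hth 0.653, 0.417 and 0.385 per kb. The lines with a single protein showed less of this contrast. Dfd alone had 0.472 per kb inside its regions and 0.482 outside, Abd-B 0.496 and 0.476, tagged Hth without a Hox protein 0.485 and 0.480, and Gcm 0.563 and 0.477. Dfd+Gcm had 0.635 and 0.472 per kb and Ubx+Gcm 0.224 and 0.492 per kb. Of the 101 octamers 72 lay in a region of some line, and none in a Ubx region, which covered 4225 bp.

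By class, Dfd+Hth regions held 21 of the 34 class 1 octamers of the locus (61.8%), 14 of the 21 of class 2 (66.7%) and 26 of the 46 of class 3 (56.5%). Ubx+Hth regions held 11, 4 and 13 of them (32.4%, 19.0% and 28.3%), and Abd-B+Hth regions 15, 5 and 17 (44.1%, 23.8% and 37.0%). Hth regions held 10, 5 and 3 (29.4%, 23.8% and 6.52%). Tagged Hth therefore covered few of the class 3 octamers, of which Dfd+Hth covered most.

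**Figure D5:**
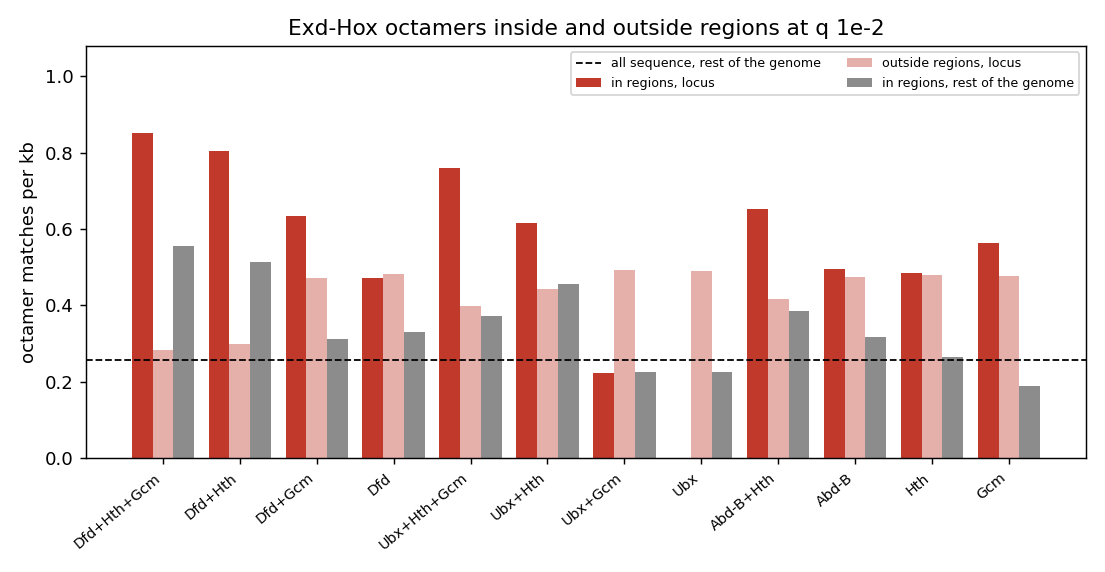
Octamer matches per kb on both strands inside regions in the locus (dark red), outside regions in the locus (pale red) and inside regions in the rest of the genome (grey) for each of the 12 lines, with the value over all sequence of the rest of the genome as a dashed line. Dfd+Hth stands at 0.804, 0.298 and 0.513 per kb, while Dfd alone stands at 0.472 and 0.482 per kb inside and outside its regions in the locus.

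Counted by region, 18 of the 37 Dfd+Hth regions without a Dfd region held an octamer (48.6%), against 998 of 2097 such regions of the rest of the genome (47.6%). The regions of the locus were wider, with medians of 726 and 474 bp, and held 1.02 matches per kb, against 1.21 elsewhere. Of 74 windows of the same lengths, set 1000 bp to either side of the regions of the locus, 33.8% held an octamer, at 0.555 matches per kb. In the central 200 bp, 6 of 37 held one (16.2%), against 30.4% elsewhere and 4.64% of all 200 bp tiles of the genome. Dfd+Hth regions of the locus that Dfd alone also bound held 0.571 matches per kb, against 0.391 elsewhere. For these Dfd+Hth regions the share with an octamer was thus close to that elsewhere, and the matches per kb were below it. For Ubx+Hth regions without a Ubx region, 16 of 34 held an octamer (47.1%), against 33.3% elsewhere, at 0.726 and 0.802 matches per kb. For Abd-B+Hth regions without an Abd-B region, 8 of 12 held an octamer (66.7%), against 29.1% elsewhere, at 1.68 and 0.747 matches per kb.

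The other 39 clusters were 282 to 1353 bp wide, with a median of 555 bp, and were bound in 1 to 6 lines. They held 78 regions, and 9 of them held 12 octamers. Of these 39, 10 were bound by Abd-B or Abd-B+Hth only, 7 by Dfd+Hth and Dfd+Hth+Gcm only, 5 by Gcm only and 5 by Ubx+Hth, Ubx+Hth+Gcm or both only. A further 4 had Dfd and Dfd+Hth regions but none of an Ubx or Abd-B line. Their centres were intergenic in 36 cases, as they were for 59 of all 64 clusters.

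Genes of the proximal-distal axis of appendages, a list of 20 that includes elB and noc, were examined for regions within 2 kb that were called only with Hth. Dfd+Hth regions without a Dfd region were near 8 of 20, beside 13.5% of all protein-coding genes. The 8 were hth itself, ss, which patterns the antenna, the Bar homeobox gene B-H2, ap, the selector of the dorsal wing, bab1 and bab2, which pattern the tarsus, Sp1, a zinc finger gene of leg growth, and esg. Neither elB nor noc was among them, because Dfd alone bound both genes and the Dfd+Hth regions within 2 kb overlapped a Dfd region. This depends on the distance. Dfd+Hth regions without a Dfd region lie farther out, from 14387422 to 14388577 just outside the 2 kb around elB and from 14496644 downstream of noc. With 10 kb around genes the count was 10 of 20, beside 31.8% of all protein-coding genes.

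Ubx+Hth regions without a Ubx region were near 6 of 20, beside 10.7%, and these were elB, noc, hth, ap, bab1 and bab2. They were near elB with 6 regions that summed to 6051 bp and near noc with 1 region of 395 bp, while at ap, bab1, bab2 and hth they summed to 839 to 1225 bp a gene. The genes elB and noc lie in the locus, which was chosen on the widths and calls of such regions. Nothing is therefore read from their place among the 6 or from their larger sum. Abd-B+Hth regions without an Abd-B region were near 4 of 20, beside 17.7%, namely hth, exd, al and ap. The list was drawn up with results of these data known, and long genes have more room for a region, which was not adjusted for. Regions over exons that are on the plasmids had been taken out before deposit, and hth is on those of the Hth lines.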

How the data were processed

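ChIP-Seq against GFP was run on 2 biological replicates and 1 input of each of 12 Kc167 lines. Per the study's methods and the submitters' processing notes, the authors mapped unique reads to dm6 with Bowtie 1.2.2, called regions for each replicate over its input with MACS2 (version 2.1.1.20160309, q 1e-2 and 1e-10), left out regions on plasmid-borne exons and merged both replicates into 1 list per line. The deposited score column was 0 in every row and was not used, so positions alone were compared. Regions touching the locus were joined into clusters by an overlap of at least 1 bp (Python 3.11.15, numpy 2.4.6, overlap counts checked against bedtools 2.31.1). Motifs were searched on both strands of the release 6 genome and genes taken from Ensembl release 115. A site counted as inside a region if it lay wholly in it. Members, gene lists and clusters were chosen with earlier results of these data known. Clusters were described singly if they held a region of at least 1500 bp, were bound in at least 10 lines or lay within 2 kb of elB or noc. Octamers were printed for clusters 7, 50, 56 and 57 by rule. Scripts were tested on simulated data. The alternatives were the stricter threshold, mixed thresholds, 50% overlap, 400 bp windows on centres, other motif windows and gene distances. Clusters were also joined up to 500 bp apart or only with 100 bp shared. Regions wholly inside the locus were counted as well.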

Additional observations from a re-analysis of the deposited data

How the results depend on the processing

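No paired analysis was possible because both replicates of a line had been merged and replicate numbers are not shared between lines. For the same reason no replicate could be left out, and no value has a replicate error. Of 65 alternative values 56 stayed within 1.5 times the main count or its interval, and 9 did not. They include an unplanned count of regions wholly inside the locus for each of the 12 lines. A single region crosses an edge, so that this count could hardly move, and Dfd+Hth went from 55 to 54. They also include the windows beside Dfd+Hth regions without a Dfd region, of which 33.8% held an octamer. That value lay inside the interval given below but is a local comparison and no check of stability. Counts and shares have no sign, so that a reversal was not assessed. At q 1e-10 the locus held 3 Ubx regions, against 6 in the main count, and 8 Gcm regions, against 17. Abd-B+Hth regions without an Abd-B region numbered 7 at q 1e-10 and 7 with Abd-B+Hth at q 1e-10 and Abd-B at q 1e-2, against 12. Dfd+Gcm regions without a Dfd region numbered 6 with 400 bp windows on centres, against 3, and Ubx+Gcm regions without a Ubx region 3 with mixed thresholds, against 5. At q 1e-10, 9 Dfd+Hth regions without a Dfd region overlapped a Hth region, against 14. The share of such Dfd+Hth regions with an octamer was 16.2% in the central 200 bp, against 48.6% in whole regions (95% exact binomial interval 31.9% to 65.6%, counting error only). With 10 kb around genes, 7 of 20 appendage genes had an Abd-B+Hth region without Abd-B, against 4, where 38.9% of all protein-coding genes did. The narrower windows and the stricter threshold leave less sequence by construction, and other causes were not tested. The lists give no read counts, so that a missing region was not called, which is not the same as unbound.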

Other observations

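Set against the 626 other stretches of the same length, the locus had the highest cover for 5 lines. Dfd+Hth+Gcm regions covered 34.6% of the locus and at most 20.2% of any other stretch. The values were 36.1% and 24.1% for Dfd+Hth, 22.6% and 17.3% for Ubx+Hth+Gcm, 21.6% and 12.8% for Ubx+Hth and 27.0% and 25.1% for Abd-B+Hth. For Abd-B alone 6 stretches had as much cover as the locus or more, for Hth 11, for Dfd 119, for Dfd+Gcm 231, for Ubx+Gcm 325, for Ubx 329 and for Gcm 330. The edges of the locus were set with its regions known, which favours it over stretches cut at fixed steps. The locus itself was chosen on the widths and calls of Dfd+Hth and Ubx+Hth regions, so that nothing is read from their rank. The other lines with the highest cover also express a Hox protein with Hth, so that their ranks are not independent of this choice.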
